A study of Homo sapiens with 8 samples.

Results

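The HOXC genes are the homeobox genes of the HOXC cluster on chromosome 12. Their members here were all rows of the deposited expression table whose name starts with HOXC, which gave 6 of 13453 rows: HOXC13, HOXC11, HOXC10, HOXC9, HOXC8 and a single row named HOXC4,HOXC5,HOXC6 for 3 genes. The rows were selected on their values as well as their name, because HOXC10 and HOXC4,HOXC5,HOXC6 were already known to be listed at 0 in every CBAP-expressing library. The contrast of CBAP-deficient with CBAP-expressing cells is therefore given for them as a description, with no test. The study asked how loss of CBAP, the protein encoded by TMEM102, changes gene expression in Jurkat, an established human T-cell acute lymphoblastic leukemia (T-ALL) cell line. RNA was sequenced from 4 conditions with 2 libraries each. The CBAP-expressing conditions were sh-Ctrl, Jurkat cells stably transduced with a control short hairpin RNA, and CBAP-reconstituted, CRISPR-made CBAP-KO cells that express a CBAP-GFP fusion. The CBAP-deficient conditions were sh-CBAP, cells stably transduced with a hairpin RNA against CBAP, and CBAP-KO+GFP, CBAP-KO cells that express GFP alone. The hairpin conditions share puromycin selection of stable clones after lentiviral transduction, and the other conditions share the CRISPR knockout from selected clones. A clone and the loss of CBAP thus cannot be told apart within either set. Between the sets, the vector, the clone and the processing cannot be told apart either. No source says whether the 2 libraries of a condition came from separate cultures, so the p-values measure the spread between these libraries, which may be technical.

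The values are FPKM, fragments scaled to the length of the exons and to the number of mapped fragments, summing to between 362082 and 434742 per library, and the depth in reads is unknown. TMEM102 was listed at 4.07 and 4.74 FPKM in sh-Ctrl, at 2.69 and 2.89 in sh-CBAP. CBAP-KO+GFP had it at 0 in its 2 libraries. It was also listed at 0 in both libraries labelled CBAP-reconstituted, which goes against that label at the RNA level. The paper examined clones with CBAP-GFP by immunoblot and reports that the fusion partly rescued their growth. That evidence is not from these libraries. Every direction drawn from them below rests on the label and not on their TMEM102 values. Each library had between 606 and 1256 rows at 0, among them genes that dividing cells use: EZH2 was listed at 53.9 in one sh-CBAP library and at 0 in the other. A value of 0 therefore means only that the row was listed at 0. The T-cell identity of the cells was visible in CD3D, a chain of the T-cell receptor complex, at 446 to 553 FPKM in the 8 libraries. CD5, another T-cell surface protein, was at 19.7 to 27.4 FPKM in 6 libraries and at 0.180 and 0.231 in those labelled CBAP-reconstituted. The markers CD28 (2.93 and 2.59 FPKM against 24.1 to 37.45) and CD7 (39.0 and 38.15 against 124.1 to 204.5) were also lowest there. The summed FPKM of 11 T-cell marker rows was 1593 to 1769 in the CBAP-expressing and 1779 to 2580 in the CBAP-deficient libraries. The sum thus moved with HOXC10 and HOXC4,HOXC5,HOXC6 described below, and its part in them was not tested. It was close between single hairpin libraries, at 1769 in sh-Ctrl 2 and 1779 in sh-CBAP 1. By the limma test used below, 1 of the 11 rows was higher in sh-CBAP than in sh-Ctrl, 2 were lower and 8 did not pass. Over all tested rows 3.62% were higher and 8.7% lower there. In the libraries labelled CBAP-reconstituted against sh-Ctrl, 1 marker was higher and 6 were lower, beside 28.7% and 10.7% of all rows. In CBAP-KO+GFP against those labelled CBAP-reconstituted, 7 were higher and 0 lower, beside 23.9% and 25.9%. In CBAP-KO+GFP against sh-CBAP, 6 were higher and 1 was lower, beside 37.9% and 14.8%. CD3E was at 530 and 1022 FPKM in the CBAP-KO+GFP libraries. In bulk RNA, fewer cells of a type and less RNA per cell cannot be told apart. Of the markers of other cell types, the epithelial keratins KRT8 and KRT18 summed to 0 to 2.52 FPKM and were both at 0 in the 4 CBAP-deficient libraries, the fibroblast gene COL1A1 was at 1.07 to 2.15, the B-cell gene CD79A was at 0.732 to 22.5, and no row carried one of the 5 myeloid markers.

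HOX genes encode homeodomain transcription factors that give cells their position along the body axis. In mammals they lie in 4 clusters, and their order along the chromosome follows the order in which they are used along the body, with the genes of high number, such as HOXC13, acting toward the posterior end. In blood, HOX genes are most active in stem and progenitor cells and are lowered as cells mature, and misplaced HOX expression, mainly of the HOXA cluster, is a known feature of a subtype of T-ALL. HOX proteins bind DNA together with PBX, MEIS and PKNOX cofactors, and the silent or active state of the clusters is kept by Polycomb and Trithorax protein complexes.

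In GENCODE release 44 placed on GRCh37, the build to which the authors aligned, the 8 member genes lie on the plus strand of chromosome 12, from HOXC13 at 54332615 to the end of HOXC4 at 54449814, a stretch of 117 kb. Counted from the start of HOXC13, HOXC11 starts at 34.3 kb, HOXC10 at 46.2 kb, HOXC6 at 51.8 kb, HOXC9 at 56.1 kb, HOXC8 at 70.2 kb, HOXC4 at 78.1 kb and HOXC5 at 94.2 kb. HOXC10 (54378849 to 54384063) ends 344 bases before the first annotated start of HOXC6 (54384408 to 54424607). The transcripts of HOXC4 (54410715 to 54449814), HOXC5 (54426834 to 54429145) and HOXC6 overlap, and these genes are known to share a long 5′ transcription unit. The table holds these as 1 value, so which of them gave the signal cannot be told apart. The annotation also holds a readthrough locus of 49.0 kb with no symbol of its own, from 54379629 to 54428672, that runs from inside HOXC10 to inside HOXC5.

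The start shared by HOXC4 and HOXC5 is shown here because it is a start within the row that, with HOXC10, separated the groups. RefSeq gives both genes the same promoter window on GRCh38.p14, and its 250 bases before the start are at chr12:54016638-54016887 on the plus strand. Capitals mark matches to CCAAT on either strand.
HOXC4 and HOXC5 promoter: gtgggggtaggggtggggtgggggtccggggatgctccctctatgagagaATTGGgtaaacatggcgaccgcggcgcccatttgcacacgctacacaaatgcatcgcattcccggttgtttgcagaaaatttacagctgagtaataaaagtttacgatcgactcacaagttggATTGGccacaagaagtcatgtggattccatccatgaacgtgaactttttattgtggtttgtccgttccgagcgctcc
The window held 2 CCAAT matches, both on the minus strand and starting at -200 and -77 from the start, and 32.0% of 34943 RefSeq promoter windows of the same length held at least 1. It held 1 match to TAAT, the core that homeodomains bind, against 47.5% of windows with a match, and none to GGGCGG (42.5% of windows), TATAAA (10.8%) or CACGTG (6.32%), all searched on both strands. Its GC content was 50.8%, below the median of 58.0%, while its 14 CpG dinucleotides were above the median of 11, and 44.7% of windows held as many or more. A match is a description of letters and not a bound site. Promoters of the other member genes are not shown here.

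HOXC10 and the row HOXC4,HOXC5,HOXC6 were listed at 0 in all 4 CBAP-expressing libraries and were above 4 FPKM in all 4 CBAP-deficient libraries. HOXC10, a posterior HOX factor, was at 4.45 and 5.06 FPKM in sh-CBAP and at 11.6 and 11.4 in CBAP-KO+GFP. HOXC4,HOXC5,HOXC6, which joins more anterior HOX factors, was at 4.19 and 5.88 FPKM in sh-CBAP and at 11.05 and 9.90 in CBAP-KO+GFP. The groups did not overlap for either row, and within the CBAP-deficient cells both CBAP-KO+GFP libraries were above both sh-CBAP libraries. The values for HOXC10 and for the 3-gene row were close in each library, with a ratio of HOXC10 to HOXC4,HOXC5,HOXC6 of 1.06 and 0.862 in sh-CBAP and of 1.05 and 1.16 in CBAP-KO+GFP. No fold change is given against libraries listed at 0. In the table as a whole, 583 of 13453 rows (4.33%) had every CBAP-deficient library above every CBAP-expressing one and 1265 rows (9.4%) had every one below. Of the 6 HOXC rows 2 were above, 1 was below and 3 overlapped, and nothing is read from these counts because this contrast chose the members.

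**Figure D1:**
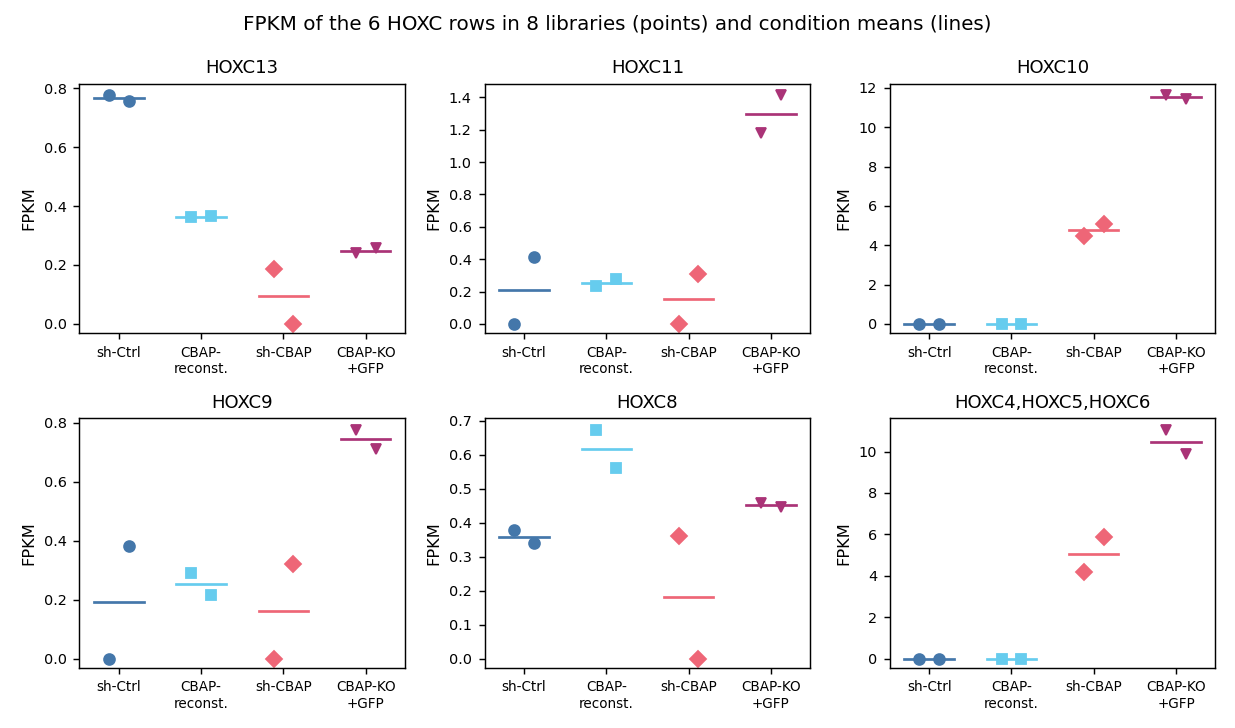
FPKM (y axis, linear, a separate scale for each row) of the 6 HOXC rows in the 4 conditions (x axis), with 1 point per library and a line at the mean of the 2 libraries. HOXC10 and HOXC4,HOXC5,HOXC6 sit at 0 in the 4 CBAP-expressing libraries and between 4.19 and 11.6 in the CBAP-deficient ones, whereas the other rows stay below 1.5.

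The difference between the CBAP-deficient conditions was not used to choose the rows and was tested with limma on log2(FPKM + 1) across the 11427 rows with a mean of at least 1 FPKM. Of the 6 HOXC rows only HOXC10 (mean 4.07 FPKM) and HOXC4,HOXC5,HOXC6 (mean 3.88) passed this filter, and both passed it only through the libraries in which they are high. CBAP-KO+GFP against sh-CBAP crosses the CRISPR and hairpin sets, so the degree of CBAP loss, the vector, the clone and the processing cannot be told apart. The sh-CBAP libraries had 1182 and 1199 rows at 0, and those of CBAP-KO+GFP had 767 and 820. HOXC10 was higher in CBAP-KO+GFP than in sh-CBAP by 1.12 on the log2(FPKM + 1) scale (2 against 2 libraries), or 2.42-fold by mean FPKM. HOXC4,HOXC5,HOXC6 was higher by 0.94, or 2.08-fold by mean FPKM. In a limma fit of the 4 CBAP-deficient libraries alone, which leaves out the libraries used to choose the rows, the SE was 0.095 and the adjusted p 0.010 for HOXC10, and the SE was 0.18 and the adjusted p 0.034 for HOXC4,HOXC5,HOXC6. The fit of all 8 libraries gave a limma adjusted p of 0.00036 and of 0.0038, but it takes part of its spread from the 4 libraries at 0, so these p-values are too small and nothing rests on them. In this comparison 4333 of the tested rows were higher in CBAP-KO+GFP (37.9%) and 1695 lower (14.8%), and the median difference of all tested rows was 0.20, so that relative to it HOXC10 was higher by 0.92 and HOXC4,HOXC5,HOXC6 by 0.74 on the log2 scale. After quantile normalization the same comparison gave 2973 rows higher and 2591 lower, and both HOXC rows stayed higher. Of the tested rows, 6.0% had a larger difference than HOXC10 and 9.15% a larger one than HOXC4,HOXC5,HOXC6.

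**Figure D2:**
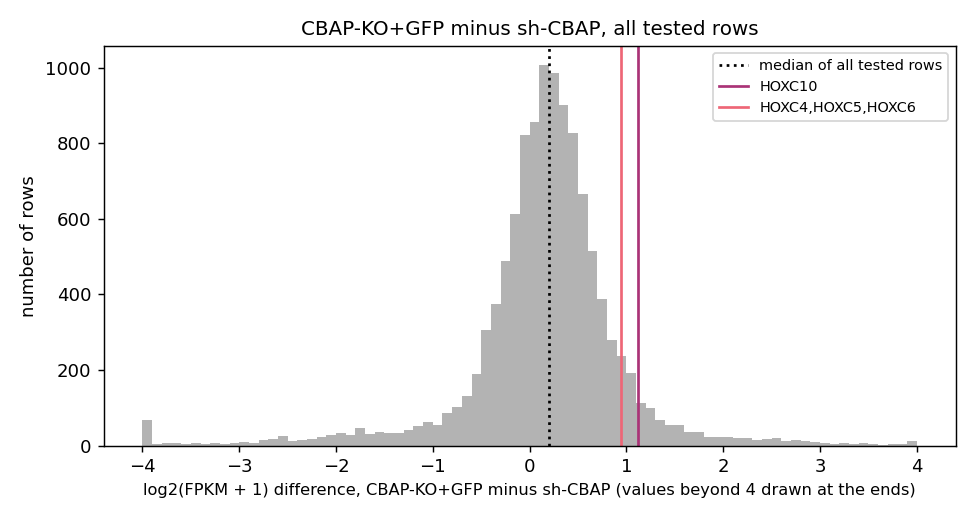
Histogram of the difference in log2(FPKM + 1) between CBAP-KO+GFP and sh-CBAP (x axis) over the 11427 tested rows (y axis, number of rows per bin). The dotted line is the median of 0.20, and the solid lines for HOXC4,HOXC5,HOXC6 (0.94) and HOXC10 (1.12) stand in the upper flank of the distribution, not beyond it.

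HOXC13, the most posterior gene of the cluster and a factor needed in hair follicles, went the other way at a low level. It was at 0.777 and 0.757 FPKM in sh-Ctrl and at 0.362 and 0.365 in the libraries labelled CBAP-reconstituted. It was at 0.187 and 0 FPKM in sh-CBAP and at 0.239 and 0.258 in CBAP-KO+GFP. All CBAP-expressing libraries were thus above all CBAP-deficient ones. HOXC11, also posterior, was at 0 and 0.416 FPKM in sh-Ctrl, at 0.231 and 0.275 in the libraries labelled CBAP-reconstituted, at 0 and 0.308 in sh-CBAP and at 1.18 and 1.41 in CBAP-KO+GFP. Only the CBAP-KO+GFP libraries stood above the other 6. HOXC9 likewise stood highest in CBAP-KO+GFP, with 0 and 0.382 FPKM in sh-Ctrl, 0.291 and 0.214 in the libraries labelled CBAP-reconstituted, 0 and 0.321 in sh-CBAP and 0.776 and 0.712 in CBAP-KO+GFP. HOXC8, which acts in the trunk region, was at 0.378 and 0.340 FPKM in sh-Ctrl, 0.674 and 0.562 in the libraries labelled CBAP-reconstituted, 0.3603 and 0 in sh-CBAP and 0.458 and 0.445 in CBAP-KO+GFP, and its groups overlapped. HOXC9 and HOXC8 lie inside the span of HOXC6, within the readthrough locus, and neither reached 1 FPKM in any library.

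None of these 4 rows passed the filter, so they were tested only in the alternative with no filter on low values. There, HOXC11 was 1.003 ± 0.204 (log2 difference ± SE) higher in CBAP-KO+GFP than in sh-CBAP (limma adjusted p = 0.012), a direction held by 36% of the 13453 rows at this threshold. HOXC9 differed by 0.60 ± 0.19 (limma adjusted p = 0.051), HOXC8 by 0.32 ± 0.14 (limma adjusted p = 0.12) and HOXC13 by 0.20 ± 0.080 (limma adjusted p = 0.096), none of which passed. Between the CBAP-expressing conditions, HOXC13 was lower in the libraries labelled CBAP-reconstituted than in sh-Ctrl, by -0.37 ± 0.080 (limma adjusted p = 0.019), where 10.7% of all rows were lower. HOXC8 (0.25 ± 0.14, limma adjusted p = 0.22), HOXC9 (0.091 ± 0.19, limma adjusted p = 0.75) and HOXC11 (0.074 ± 0.20, limma adjusted p = 0.81) did not pass there. For HOXC10 and HOXC4,HOXC5,HOXC6, all 4 of those libraries were at 0 and there was nothing to compare. HOTAIR, the noncoding RNA transcribed from the opposite strand beside HOXC11 (54356092 to 54368740), was at 0 in both sh-Ctrl and both sh-CBAP libraries, at 0.0999 and 0.0480 FPKM in those labelled CBAP-reconstituted and at 0.429 and 0.644 in CBAP-KO+GFP. Its 5′ part overlaps HOXC11, and whether the fragments were counted by strand is not given in the sources used here.

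**Figure D3:**
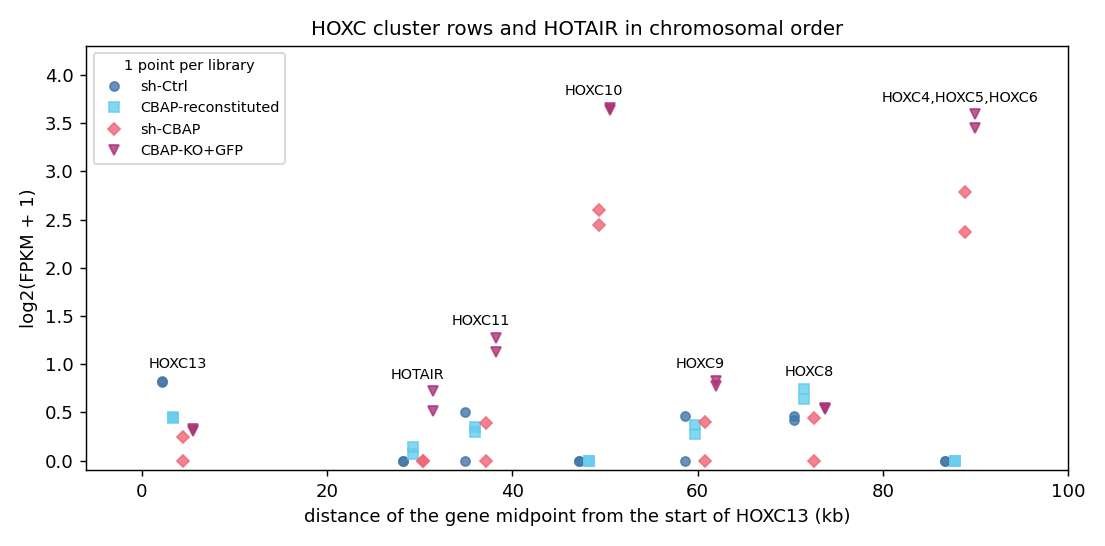
log2(FPKM + 1) (y axis) of the HOXC rows and HOTAIR against the distance of the gene's midpoint from the start of HOXC13 in kb (x axis), with 1 point per library, the conditions set slightly apart sideways, and the 3-gene row drawn at the mean of its genes' midpoints. HOXC9 and HOXC8, drawn between HOXC10 and the 3-gene row, lie inside the span of HOXC6 and stay below 1 FPKM in every library.

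The pattern of 0 in all CBAP-expressing libraries and above 0 in all CBAP-deficient ones was held by 10 rows of the table: HOXC10, HOXC4,HOXC5,HOXC6, IFNAR2, IL10RB, ZNF324B, ZNF446, ZNF350, ZNF615, PRRT2 and BREA2. These rows were named after their values were seen. The 4 rows that reached 4 FPKM in every CBAP-deficient library were 2 pairs of adjacent genes. IFNAR2, a chain of the interferon alpha and beta receptor, was at 33.2 and 33.5 FPKM in sh-CBAP and at 32.9 and 32.6 in CBAP-KO+GFP. IL10RB, a chain of the interleukin 10 receptor, was at 8.09 and 9.09 in sh-CBAP and at 12.3 and 12.1 in CBAP-KO+GFP. On chromosome 21, IFNAR2 ends 691 bases before IL10RB starts, and the annotation holds the readthrough locus IFNAR2-IL10RB (34602197 to 34669465) across both, as it holds one across HOXC10 and HOXC4,HOXC5,HOXC6. Of the 10 rows, PRRT2 was also overlapped by such a locus, and ZNF324B, ZNF446, ZNF350 and ZNF615 were not. BREA2 has no position here, so whether such a locus overlaps it is unknown. Of the other rows, ZNF350 and ZNF615 lie 4.47 kb apart on chromosome 19 and ZNF324B and ZNF446 lie 16.2 kb apart there, in both cases with no other row of the table between them.

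Among 908 rows overlapped by a readthrough locus of GENCODE release 44, 96 (10.6%) were listed at 0 in at least 1 library and reached 4 FPKM in another, against 573 of 10744 other placed rows (5.33%). Within a single condition, 63 of the 908 rows (6.94%) were at 0 in one library and at 4 FPKM or more in the other, against 374 of the 10744 (3.48%). Among the 195 rows named for several genes, 10 (5.13%) did so within a condition, against 482 of 13258 rows named for 1 gene (3.64%). RAD51D,RFFL was at 15.4 and 0 FPKM in the sh-CBAP libraries, and TAPBP,ZBTB22 at 0 and 25.5. HOXC10 and HOXC4,HOXC5,HOXC6 made no such jump within a condition, but their zeros in the CBAP-expressing libraries chose them. HOXC13, HOXC11, HOXC9 and HOXC8 never reached 4 FPKM and so could not make it. Each of them was at 0 in one sh-CBAP library and above 0 in the other. Nothing is read from the absence of jumps. The part that the listing of overlapping genes had in the zeros of HOXC10 and HOXC4,HOXC5,HOXC6 was not tested.

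Outside the HOXC cluster, the tested rows whose profile over the 8 libraries was most like that of HOXC10 by Pearson's r on log2(FPKM + 1) were CD63, a tetraspanin of lysosomes (r = 0.997), ANXA2, a membrane-binding annexin (r = 0.992), and MED13L, a Mediator subunit (r = 0.991). For HOXC4,HOXC5,HOXC6 they were CD63 (r = 0.993), ANXA2 (r = 0.992) and IL10RB (r = 0.991). The 2 HOXC rows had r = 0.998 with each other. These values describe 8 libraries of 4 conditions and are sensitive to the 4 shared zeros. CD63 ranged only from 49.1 to 50.3 FPKM in the CBAP-expressing libraries and from 57.9 to 62.6 in the others, while ANXA2 was at 6.78 to 9.04 and at 18.5 to 29.8. By Spearman's rho the nearest were IL10RB (1.0), ZNF324B (0.973) and ZNFX1-AS1 (0.944) for both HOXC rows. ZNFX1-AS1 was at 83.4 and 85.2 FPKM in sh-Ctrl and at 0 in the libraries labelled CBAP-reconstituted. Its Pearson's r was only 0.613 with HOXC10 and 0.616 with HOXC4,HOXC5,HOXC6.

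The 22 rows of HOX genes analysed here can be ordered by FPKM because it is scaled to length. In CBAP-KO+GFP, HOXC10 ranked 3 of 22 at 11.4 to 11.6 FPKM and HOXC4,HOXC5,HOXC6 ranked 4 at 9.90 to 11.05, below HOXA7 (23.4 to 24.8) and HOXB7 (18.0 to 19.9) and above HOXD13 (4.32 to 4.46), with no overlap between neighbours in this order. In sh-CBAP, HOXC4,HOXC5,HOXC6 ranked 4 and HOXC10 ranked 5, and their ranges overlapped, below HOXD13 at 7.07 to 7.89. In sh-Ctrl and in the libraries labelled CBAP-reconstituted they shared the bottom of the order at 0. Among all rows above 0, the mean of HOXC10 stood at the 50.6th percentile in CBAP-KO+GFP and at the 33.0th in sh-CBAP. Of the 16 of these rows outside the HOXC cluster, none had every CBAP-deficient library above every CBAP-expressing one, as 4.33% of all rows had. HOXA13, the most posterior gene of the HOXA cluster, had them all below, like HOXC13, at 0.149 to 0.300 against 0.976 to 1.54 FPKM. Of all rows 9.4% had them below. HOXA5, HOXA6, HOXB3 and HOXB4 were at 0 in all 8 libraries and could not separate. With these shares nothing is read from the counts among 16 rows.

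**Figure D4:**
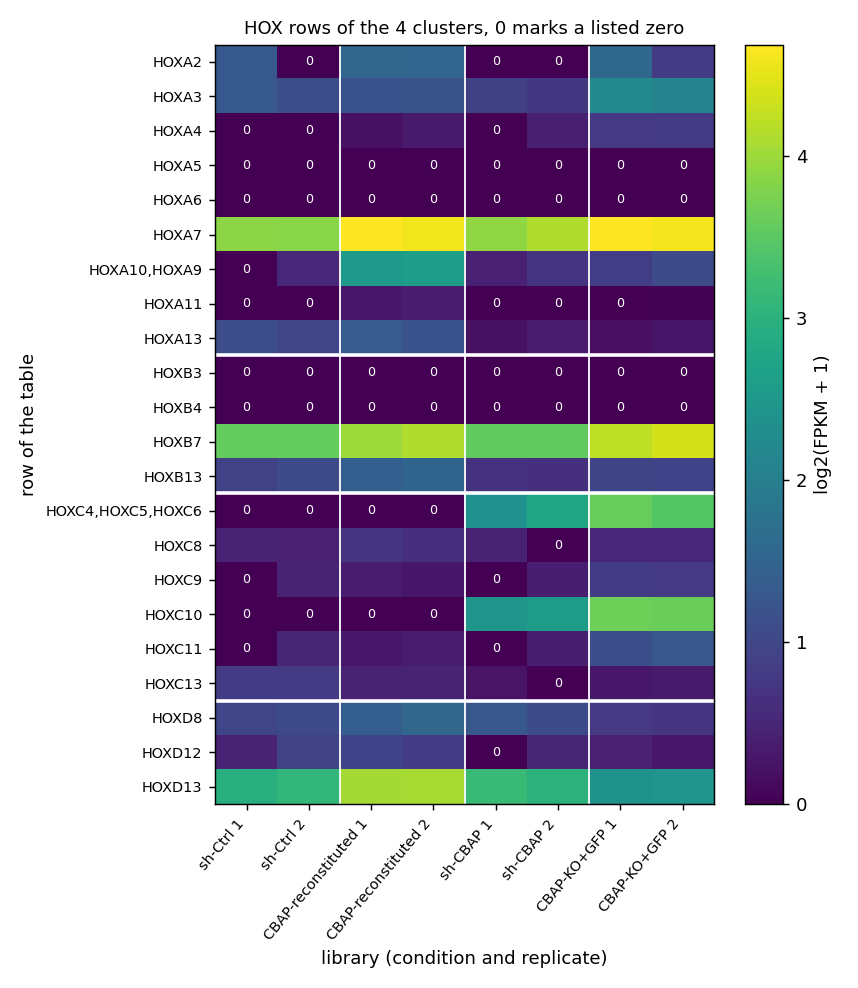
log2(FPKM + 1) (colour scale) of the 22 HOX rows (y axis, grouped by the 4 clusters) in the 8 libraries (x axis, by condition), with 0 written where a row is listed at 0. HOXC10 and HOXC4,HOXC5,HOXC6 change from listed zeros to ranks 3 and 4 of the HOX rows of CBAP-KO+GFP, whereas HOXA7 and HOXB7 are above 10 FPKM in every library.

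The other HOX clusters were tested in the 4 comparisons between conditions. In sh-CBAP against sh-Ctrl, where 414 of 11427 rows (3.62%) were higher and 994 (8.7%) lower (845 and 830 after quantile normalization), none of the 4 HOXA, 2 HOXB and 2 HOXD rows tested here passed. In CBAP-KO+GFP against the libraries labelled CBAP-reconstituted, where 2734 rows (23.9%) were higher and 2963 (25.9%) lower, HOXA3 (0.95 ± 0.10, limma adjusted p = 0.0010) and HOXB7 (0.24 ± 0.074, limma adjusted p = 0.038) were higher. HOXA10,HOXA9 (-1.61 ± 0.20, limma adjusted p = 0.0018, a call lost with a pseudocount of 0.1), HOXB13 (-0.49 ± 0.10, limma adjusted p = 0.0095), HOXD13 (-1.64 ± 0.086, limma adjusted p = 9.4e-05) and HOXD8 (-0.72 ± 0.11, limma adjusted p = 0.0036) were lower. HOXA10,HOXA9, the row of the genes most tied to T-ALL, was at 4.82 and 5.08 FPKM in the libraries labelled CBAP-reconstituted and at 0.809 and 1.102 in CBAP-KO+GFP. This was the opposite order to HOXC10 within the CRISPR set only. In the hairpin set HOXA10,HOXA9 was at 0.3445 and 0.627 FPKM in sh-CBAP, against 0 and 0.431 in sh-Ctrl. In CBAP-KO+GFP against sh-CBAP, HOXA3 (1.32), HOXA7 (0.63) and HOXB7 (0.77) were higher together with HOXC10, and HOXD13 (-0.65) and HOXD8 (-0.42, a call lost after quantile normalization) were lower. In the libraries labelled CBAP-reconstituted against sh-Ctrl, 3277 rows (28.7%) were higher and 1220 (10.7%) lower (1984 and 1644 after quantile normalization), and among them HOXA7 (0.77), HOXB7 (0.50), HOXB13 (0.44), HOXD13 (1.05) and HOXD8 (0.46, a call lost after upper-quartile scaling) were higher by limma. HOXA10,HOXA9 passed there too, but was at 0 in one sh-Ctrl library and at 0.431 in the other. HOTAIRM1, the noncoding RNA of the HOXA cluster, was higher in CBAP-KO+GFP than in sh-CBAP (0.88 ± 0.28, limma adjusted p = 0.043, lost under both other scalings) and did not pass in the other comparisons.

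Of the 4 tested rows of HOX cofactors, none passed in sh-CBAP against sh-Ctrl, where 3.62% of all rows were higher and 8.7% lower, and all 4 were higher in CBAP-KO+GFP than in sh-CBAP, where 37.9% of all rows were. PBX4 was at 1.43 and 2.89 FPKM in sh-CBAP and at 5.77 and 8.21 in CBAP-KO+GFP (1.36 ± 0.26, limma adjusted p = 0.0076). MEIS2 was listed at 0 in all 4 hairpin libraries, at 4.43 and 4.22 FPKM in those labelled CBAP-reconstituted and at 1.46 and 1.61 in CBAP-KO+GFP. PBX4 was also higher in CBAP-KO+GFP than in the libraries labelled CBAP-reconstituted (1.14 ± 0.26, limma adjusted p = 0.014). PBX3 was higher in the libraries labelled CBAP-reconstituted than in sh-Ctrl (0.45 ± 0.082, limma adjusted p = 0.0097). Of the homeobox factors known from T-ALL, NKX2-1 was at 17.1 and 17.9 FPKM in the libraries labelled CBAP-reconstituted and between 1.33 and 2.35 in the other 6. HHEX was at 0.636 and 0.705 FPKM in sh-Ctrl and at 4.55 and 5.44 in sh-CBAP (1.84 ± 0.10, limma adjusted p = 0.00079), but at 2.39 and 2.42 in the libraries labelled CBAP-reconstituted and at 0.0220 and 0 in CBAP-KO+GFP. Its change differed between the sets (-3.59 ± 0.14 on the log2 scale, limma interaction adjusted p = 6.3e-05). HOXC10 and HOXC4,HOXC5,HOXC6 were above 0 in both kinds of CBAP-deficient cell, but that pattern chose them. Their changes also differed in size between the sets, by 1.12 and 0.94, given as a description with no test.

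Polycomb genes, whose products keep HOX clusters silent, were all above 0 in at least 1 library of each condition. EZH2 was listed at 53.9 and 0 FPKM in sh-CBAP. PCGF5 was at 0 and 33.8 in sh-Ctrl and at 0 and 41.3 in sh-CBAP. The SEs of these rows were large (1.71 and 2.20), and neither passed in any comparison. In sh-CBAP against sh-Ctrl, where 3.62% of all rows were higher and 8.7% lower, none of 31 tested Polycomb rows was higher and 2 were lower. These were RBBP4 (-0.61 ± 0.11, limma adjusted p = 0.028) and BMI1,COMMD3,COMMD3-BMI1 (-0.31 ± 0.065, limma adjusted p = 0.036). In CBAP-KO+GFP against the libraries labelled CBAP-reconstituted 10 were higher, led by JARID2 (1.28) and RYBP (0.82), and 5 were lower, led by PCGF1 (-0.67) and EED (-0.66), with a list median of 0.01 beside 0 for all rows. Between the CBAP-deficient conditions 18 were higher in CBAP-KO+GFP than in sh-CBAP, led by RBBP4 (1.27) and PCGF3 (1.104), and 3 were lower, with PHC1 (-1.47) and PHF19 (-0.35) first, with a list median of 0.37 beside 0.20. Of 21 tested Trithorax rows, whose products keep HOX genes active, none passed in sh-CBAP against sh-Ctrl. When CBAP-KO+GFP was set against the libraries labelled CBAP-reconstituted, 8 were higher, with DOT1L (0.58) and NCOA6 (0.55) first, and 3 were lower, with a list median of 0.09 beside 0 and shares of 23.9% higher and 25.9% lower over all rows. ASH1L, one of the 3, was at 2.81 to 3.75 FPKM in 6 libraries and at 0 in the 2 libraries of CBAP-KO+GFP, and DPY30 was lower by -0.84. Between the CBAP-deficient conditions 13 Trithorax rows were higher in CBAP-KO+GFP than in sh-CBAP, with DOT1L (0.91) and NCOA6 (0.72) first, and 3 were lower, among them ASH1L and MLLT3 (-0.80), with a list median of 0.41 beside 0.20 and shares of 37.9% and 14.8% over all rows. In the libraries labelled CBAP-reconstituted against sh-Ctrl, where 28.7% of all rows were higher and 10.7% lower, 7 Polycomb rows were higher, with CBX2 (0.58) and RNF2 (0.49) first, and 2 were lower, PHC1 (-1.86) and JARID2 (-0.83). The list median was 0.18 beside 0.17. Of the Trithorax rows 7 were higher there, among them DPY30 (0.77), and 1 was lower, MLLT3 (-0.22), with a list median of 0.23. RBBP5, another of the 7, was at 0 in both sh-Ctrl libraries and at 15.1 and 14.6 FPKM in those labelled CBAP-reconstituted. It was also at 0 in both sh-CBAP libraries and at 14.7 and 0 in CBAP-KO+GFP, and its SE was large (1.18).

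The genes on both sides of the HOXC cluster differed in both directions. Within 500 kb of either end the table held 19 rows, of which 15 were tested. In sh-CBAP against sh-Ctrl 1 was higher, ITGA5, an integrin subunit (0.76 ± 0.13, limma adjusted p = 0.023), and 1 was lower, GTSF1 (-1.14 ± 0.12, limma adjusted p = 0.0069). Of all rows 3.62% were higher and 8.7% lower there. Within the CRISPR set, CBAP-KO+GFP against the libraries labelled CBAP-reconstituted, 4 were higher and 6 lower, where 23.9% and 25.9% of all rows were. ITGA5 (1.27 ± 0.13, limma adjusted p = 0.00092) and CBX5, which encodes a heterochromatin protein (0.55 ± 0.089, limma adjusted p = 0.0044), were higher, and TARBP2 (-1.19 ± 0.15, limma adjusted p = 0.0019) was lower. NCKAP1L was at 4.58 and 4.003 FPKM in the libraries labelled CBAP-reconstituted and listed at 0 in the other 6. ITGA5 was higher in both kinds of CBAP-deficient cell, at 18.0 and 14.1 FPKM in sh-CBAP against 8.64 and 9.40 in sh-Ctrl, and at 11.3 and 9.89 in CBAP-KO+GFP against 3.65 and 3.98. Between the CBAP-deficient conditions 3 neighbours were higher in CBAP-KO+GFP than in sh-CBAP, with GTSF1 (1.77) and CALCOCO1 (0.45) first, and 5 were lower, with HNRNPA1 (-1.68) and ZNF385A (-0.75) first, where 37.9% and 14.8% of all rows were higher and lower. Between the CBAP-expressing conditions 4 were higher in the libraries labelled CBAP-reconstituted, among them NCKAP1L and TARBP2 (0.66), and 3 were lower, with HNRNPA1 (-1.33) and ITGA5 (-1.06) first, where 28.7% and 10.7% of all rows were. PRR13 and PCBP2, near the far end of this window, were among the rows with listed zeros: PCBP2, an abundant RNA-binding protein, was at 143 and 0 FPKM in sh-Ctrl, 149 and 154 in the libraries labelled CBAP-reconstituted, 0 and 0 in sh-CBAP and 176 and 0 in CBAP-KO+GFP.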

How the data were processed

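RNA-seq of 8 libraries (4 conditions, 2 each) was sequenced by the authors as paired-end reads of 100 bases, aligned to hg19 with TopHat and quantified with cuffdiff. CASAVA 1.8, Bowtie, Cufflinks and Cuffdiff are named in the submitters' processing notes. The authors deposited FPKM per gene, 1 table of 13453 rows and 8 library columns, all mapped by name, with no counts. The annotation and the scaling between libraries are not given in the sources used here. From the deposited FPKM, log2(FPKM + 1) of the 11427 rows with a mean of at least 1 was fitted with limma 3.58.1 (R 4.3.3, trended empirical Bayes) with 4 condition means, and p-values were adjusted by Benjamini-Hochberg over all tested rows, with a threshold of 0.05. On simulated data for CBAP-KO+GFP against sh-CBAP, with 11427 rows of which 200 were changed by 1 on the log2 scale, 157 were recovered with 4 false calls. Python 3.11.15, pandas 2.3.3 and numpy 2.4.6 were used.

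The members and all gene lists were chosen with earlier results of these data known. The text names all HOXC rows, the 3 rows most like each tested HOXC row, and from each list and comparison up to 2 rows in each direction with the largest change past the threshold. A further row that the same rule named is not reported here and was left out of the lists. Rows outside this rule are said to be so, or serve as checks of cell type, of the targeted gene or of listed zeros, or as the order of HOX rows. Conditions were taken from the sample labels. Replicate numbers did not pair the samples, since the correlation of deviations between same-numbered libraries was -0.063 to 0.15.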

Additional observations from a re-analysis of the deposited data

Results flagged for a closer look

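The change between CBAP-deficient and CBAP-expressing cells was compared between the CRISPR set and the hairpin set by an interaction term in the limma fit. Of the 40 rows examined, 26 differed between the sets at an adjusted p under 0.05, beside 3861 of all 11427 tested rows. Nothing is read from this count, because the rows were named for large changes in these same comparisons. It includes HOXC10 and HOXC4,HOXC5,HOXC6, and the latter leaves it with a pseudocount of 0.1. For HOXC10 the change was larger in the CRISPR set by 1.12 on the log2 scale and for HOXC4,HOXC5,HOXC6 by 0.94. These 2 values are descriptions with no test, because the zeros of the CBAP-expressing libraries chose the rows. With those zeros they equal the differences between CBAP-KO+GFP and sh-CBAP.

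Among the other HOX rows, the difference of the changes on the log2 scale (CRISPR set minus hairpin set) was 1.33 for HOXA3, -1.92 for HOXA10,HOXA9, -1.70 for HOXD13 and -0.88 for HOXD8. For cofactors and homeobox factors it was 1.26 for PBX4, -1.07 for MEIS2, -3.59 for HHEX and -2.84 for NKX2-1. Among Polycomb rows it was 0.97 for RBBP4, 0.70 for PCGF3, -0.32 for PHF19, 1.18 for JARID2, 0.43 for BMI1,COMMD3,COMMD3-BMI1, 0.80 for RYBP and -0.52 for EED. Among Trithorax rows it was 0.62 for DOT1L, -2.06 for ASH1L, -0.58 for MLLT3 and -1.15 for DPY30. Among neighbours of the cluster it was 1.51 for GTSF1, -0.97 for ZNF385A, -2.40 for NCKAP1L, -1.29 for TARBP2 and 0.64 for CBX5. MEIS2, NCKAP1L and ASH1L have at least 1 condition listed at 0, so their values depend on the pseudocount and are not folds. No HOXC row had a library that stood apart by Dixon's criterion within its 4 CBAP-expressing or 4 CBAP-deficient libraries, in 10 groups examined.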

How the results depend on the processing

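The differences of HOXC10 and HOXC4,HOXC5,HOXC6 between CBAP-KO+GFP and sh-CBAP kept their direction under every alternative computed for them. HOXC10 ranged from 0.76 (pseudocount 5) to 1.26 (pseudocount 0.1) and, with each library left out in turn, from 1.05 to 1.20. HOXC4,HOXC5,HOXC6 ranged from 0.63 to 1.06 and from 0.74 to 1.14. Apart from the fit of the 4 CBAP-deficient libraries alone, these fits take part of their spread from libraries listed at 0. Nothing rests on the p-values of those fits. The fit without rows that hold a 0 has no value for either row. It and the fit of the 4 CBAP-deficient libraries alone were chosen after seeing the data. Among 1103 values of 69 other differences under alternatives, 999 kept their side of the threshold, 104 lost it and none changed sign. Apart from fits with 1 library left out, calls were lost for HOXD8, HOTAIRM1 and CALCOCO1 in CBAP-KO+GFP against sh-CBAP, for HOXD8, TARBP2, RBBP5 and MLLT3 in those labelled CBAP-reconstituted against sh-Ctrl, for RBBP4 in sh-CBAP against sh-Ctrl and for HOXA10,HOXA9 in CBAP-KO+GFP against those labelled CBAP-reconstituted. With the replicate block, the calls lost were those of CALCOCO1, RBBP5, MLLT3 and RBBP4. Counts of calls over all rows moved more. In sh-CBAP against sh-Ctrl the 1408 calls became 776 with the replicate block, and 303 to 2371 with 1 library left out: 743 and 934 when sh-Ctrl 1 or sh-Ctrl 2 was dropped, 316 and 303 without those labelled CBAP-reconstituted 1 and 2, 606 and 595 without CBAP-KO+GFP 1 and 2, and 2371 without sh-CBAP replicate 2. In the libraries labelled CBAP-reconstituted against sh-Ctrl the 4497 calls ranged from 1582 to 5918 (1706 and 1582 without CBAP-reconstituted 1 and 2). In CBAP-KO+GFP against those labelled CBAP-reconstituted the 5697 ranged from 3327 to 6863 (3332 and 3327 without CBAP-reconstituted 1 and 2). Fewer libraries leave fewer degrees of freedom. Otherwise the cause was not tested. The block moved no other count by 1.5 times. Scaling changed the split of calls: in CBAP-KO+GFP against sh-CBAP 4333 higher and 1695 lower became 2973 and 2591 after quantile normalization and 3509 and 2385 after upper-quartile scaling, with the median of all rows at 0.04 and 0.09 in place of 0.20. The splits became 1984 and 1644, and 2233 and 1632, in those labelled CBAP-reconstituted against sh-Ctrl, and 845 and 830, and 796 and 848, in sh-CBAP against sh-Ctrl. Rescaling moved 8 of 48 condition means of the HOXC rows by more than the SD of 2 libraries. With depth unknown, values below 1 FPKM carry no counting interval.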
